A study of Mus musculus with 6 samples.

Results

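The Ikaros family (Ikzf1, Ikzf2, Ikzf3 and Ikzf4), the Runx family (Runx1, Runx2 and Runx3), their shared partner Cbfb, and Gata3 were followed between Eomes-positive and Eomes-negative γδ T cells. These 9 genes, chosen by name, are 9 of the 30342 names on the array and 18 of its 39429 probes. The cells came from the spleen of Eomes-IRES-GFP mice on a C57BL6 background, in which an internal ribosome entry site couples green fluorescent protein (GFP) to the T-box factor Eomes, so both groups carry the reporter allele. B220+, CD4+ and CD8β+ cells were depleted, and CD3+ TCRγδ+ TCRβ- cells were sorted as GFP+ (Eomes-positive) or GFP- (Eomes-negative). Each of 3 independent sorts pooled 4 to 6 spleens and gave 1 array per group, from mice of 9, 9.5 and 7.5 weeks for sorts 1, 2 and 3. Total RNA of 9 ng (sorts 1 and 2) or 4 ng (sort 3) was amplified and hybridised to one-colour Agilent arrays, where the share of probes well above background ran from 47.7% to 56.6%.

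Ikaros proteins are zinc finger factors that bind DNA through amino-terminal fingers and pair with each other through carboxyl-terminal fingers. They recruit the NuRD complex, which remodels chromatin and removes histone acetylation. Ikzf1 encodes Ikaros, which directs lymphocyte development, Ikzf2 encodes Helios, Ikzf3 encodes Aiolos, and Ikzf4 encodes Eos. Runx proteins bind DNA through the runt domain and need Cbfb for stable binding. Runx1 acts throughout T cell development, Runx2 is best known as the master factor of bone formation, and Runx3 silences Cd4 and promotes the cytotoxic programme in CD8+ T cells. Gata3 is needed for T cell development and directs type 2 cytokine genes such as Il4.

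The array reads these genes with 60-base probes, and the results turn on which stretch of a transcript a probe covers. Ikzf3, Cbfb and Gata3 had 1 probe each, Ikzf2, Runx1 and Runx3 had 2, and Ikzf1, Ikzf4 and Runx2 had 3. Positions are given as the scanner files list them, in the mouse mm9 build. The first pair of sequences is shown because these probes, for Ikzf1 and Ikzf4, cover the same coding stretch of a carboxyl-terminal zinc finger. Capitals mark the bases that differ. The Ikzf1 probe lies at chr11:11669493-11669552 on the plus strand and the Ikzf4 probe at chr10:128071131-128071190 on the minus strand.
Ikzf1 A_55_P2023612: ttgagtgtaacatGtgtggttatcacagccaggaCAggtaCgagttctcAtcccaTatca
Ikzf4 A_55_P1979682: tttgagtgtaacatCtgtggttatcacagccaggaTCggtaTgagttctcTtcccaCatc
Over 59 aligned bases the probes shared 53 and differed at 6. Among all 153 pairs of the 18 probes, the next most alike pair shared 30 bases. Whether either probe also takes up the other gene's transcript was not tested.

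The 3 Runx2 probes are shown because only 1 of them gave a signal well above background throughout. All lie on the minus strand of chromosome 17. The first, at chr17:44951128-44951187, holds the start codon (in capitals) of the Runx2 form made from the distal promoter. The second, at chr17:44744925-44744984, lies in coding sequence near the carboxyl end of the protein. The third, at chr17:44633034-44633093, is assigned in the files to a non-coding Runx2 transcript and is given by its first 30 bases.
Runx2 A_52_P55876: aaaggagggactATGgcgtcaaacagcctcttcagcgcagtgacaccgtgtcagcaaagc
Runx2 A_52_P460545: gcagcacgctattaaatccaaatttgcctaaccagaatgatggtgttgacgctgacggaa
Runx2 A_65_P18181: tgattgtttttctcatttatacctacattt
The third probe lies 111.9 kb from the second, which in turn lies 206.2 kb from the first.

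A further set is shown because 1 probe of Ikzf1 and 1 of Runx1 read both arrays of sort 3 over 1 log2 unit low where the other probes of the same gene did not, and because Gata3 is read by a single probe. The first 30 bases of each are given. The Ikzf1 probe lies at chr11:11661344-11661403 on the plus strand, and the Gata3 probe at chr2:9779551-9779610 on the minus strand. The Runx1 probes lie at chr16:92604413-92604472 (A_51_P206585) and chr16:92605785-92605844 (A_55_P2183438), both on the minus strand.
Ikzf1 A_55_P2023607: cagaaatttcttggtaagagttaaatgttt
Runx1 A_51_P206585: tgtgcatcgtgtcactgtaaatgtaatggt
Runx1 A_55_P2183438: caggagggcccttggaggccaccaggaaga
Gata3 A_66_P111011: ttaaggaatatagggggattaaagtatgga

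None of the 9 factors passed the test between the groups. A level is the log2 signal of a gene's brightest probe minus its array's 75th percentile, and a difference is Eomes-positive minus Eomes-negative. All 9 were measured on all 6 arrays, meaning that at least 50% of a probe's spots were well above background. The test was a limma fit over 16418 measured genes with Benjamini-Hochberg adjustment and a threshold of 0.05. It called 0 of the 9 factors, against 2.77% of all genes tested (1.2% higher and 1.57% lower), and 0 of the 9 had an unadjusted p under 0.05, against 12.2% of all genes. No factor had groups that did not overlap, against 18.2% of all genes, and none differed by over 2-fold, against 7.64%. The median absolute difference over all genes was 0.20. When the sort was added as a block, limma again called 0 of the 9, against 7.98% of all genes (3.65% higher and 4.32% lower), while 2 factors (Runx2 and Runx3) had an unadjusted p under 0.05. With 3 arrays in each group and the pairing by sort ignored, the smallest two-sided p of an exact permutation test is 0.1. Permuting only within sorts would make it larger.

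**Figure D1:**
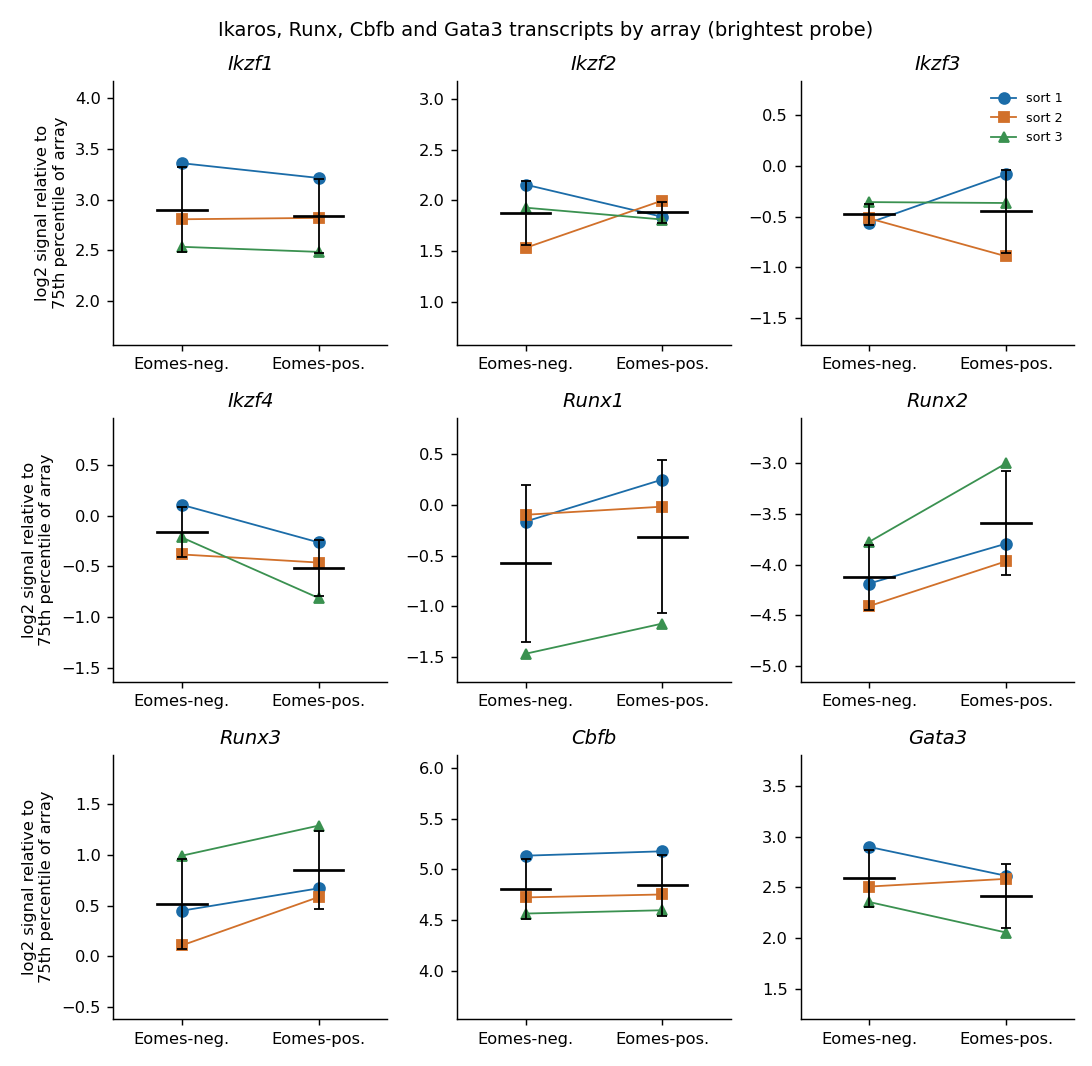
Level of each factor by array, as log2 signal minus that array's 75th percentile, for Eomes-negative and Eomes-positive cells. Lines join the arrays of 1 sort, and bars give the mean and SD over 3 arrays. The groups overlap in every panel, and each panel spans the same height in log2 units around its own values.

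By its brightest probe, Ikaros itself differed between the groups by at most 0.15 within any sort. The Ikzf1 level in Eomes-negative cells was 3.36, 2.81 and 2.53 in sorts 1, 2 and 3, and in Eomes-positive cells it was 3.21, 2.82 and 2.48. Both groups were highest in sort 1 and lowest in sort 3, and they overlapped. The means were 2.90 ± 0.42 and 2.84 ± 0.36 (SD, n = 3), a difference of -0.06 (95% confidence interval -0.78 to 0.66, limma adjusted p = 0.992). Within sorts the differences were -0.15, 0.01 and -0.05, and the block by sort narrowed the interval to -0.31 to 0.19. The other Ikzf1 probes gave wider differences within sorts. They were 0.05, 0.31 and -0.64 for A_55_P2023607, and 0.08, -0.62 and -0.45 for the zinc finger probe A_55_P2023612.

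Helios, which marks subsets of regulatory and activated T cells, showed no common direction over the sorts. The Ikzf2 level was 2.16, 1.53 and 1.93 in Eomes-negative cells and 1.84, 1.998 and 1.81 in Eomes-positive cells. The Eomes-negative array of sort 2 was the lowest and that of sort 1 the highest, with all 3 Eomes-positive arrays between them. The difference was 0.01 (interval -0.48 to 0.50, limma adjusted p = 0.997), and the sort differences were -0.32, 0.47 and -0.12.

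Aiolos, which follows Ikaros in lymphocyte maturation, was likewise split between sorts. The Ikzf3 level was -0.56, -0.52 and -0.36 in Eomes-negative cells and -0.09, -0.89 and -0.37 in Eomes-positive cells. The 3 Eomes-positive arrays spread around the narrow Eomes-negative values, from above them in sort 1 to below them in sort 2. The difference was 0.03 (interval -0.55 to 0.61, limma adjusted p = 0.997).

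Eos, a partner of Foxp3 in regulatory T cells, was the one Ikaros member lower in Eomes-positive cells in all 3 sorts. The Ikzf4 level was 0.11, -0.38 and -0.21 in Eomes-negative cells and -0.26, -0.46 and -0.81 in Eomes-positive cells. The Eomes-positive array of sort 1 lay among the Eomes-negative arrays, so the groups overlapped. The difference was -0.35 (interval -0.88 to 0.18, limma adjusted p = 0.693), with sort differences of -0.37, -0.08 and -0.60. The block by sort gave an interval of -0.72 to 0.02 (limma adjusted p = 0.206). A second Ikzf4 probe, A_55_P2119917 at chr10:128069604-128069663, gave the same direction in all 3 sorts (-0.26, -0.05 and -0.62). It starts 83 bases from the brightest one, so the 2 probes are not independent readings of different parts of the transcript.

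All 3 Runx genes were higher in Eomes-positive cells in each of the 3 sorts by their brightest probe, and none passed the test. With Ikzf4 and Cbfb, 5 of the 9 factors had 1 direction in all 3 sorts, against 52.4% of all genes. The Runx1 level was -0.16, -0.10 and -1.47 in Eomes-negative cells and 0.25, -0.02 and -1.17 in Eomes-positive cells. Both arrays of sort 3 lay over 1 log2 unit below the other 4, in both groups alike. The difference was 0.26 (interval -1.05 to 1.58, limma adjusted p = 0.970), the widest interval of the 9, and under the block by sort it ran from -0.04 to 0.56. The other Runx1 probe, A_55_P2183438, did not share this direction. It read -1.80, -1.63 and -1.80 in Eomes-negative cells and -1.78, -1.88 and -2.04 in Eomes-positive cells, a difference of -0.16 ± 0.15 (SE).

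Runx2 was read by the probe of the non-coding transcript. The level of probe A_65_P18181 was -4.19, -4.41 and -3.77 in Eomes-negative cells and -3.79, -3.97 and -3.00 in Eomes-positive cells. The Eomes-positive array was the higher one in every sort, but the Eomes-negative array of sort 3 lay above the Eomes-positive arrays of sorts 1 and 2. The difference was 0.54, or 1.45-fold (interval -0.24 to 1.31, limma adjusted p = 0.665). Under the block by sort the interval was 0.21 to 0.86, and the limma adjusted p of 0.0825 missed the threshold. The Runx2 value was 0.21 with normexp background correction, smaller than those of Runx3 (0.32), Ikzf4 (-0.31) and Runx1 (0.23) in the same setting.

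The coding Runx2 probes gave little or no measurable signal. The probe near the carboxyl end, A_52_P460545, was well above background only on the Eomes-positive array of sort 1. Its recorded values were -6.38, -6.09 and -6.33 in Eomes-negative cells and -4.61, -6.18 and -4.73 in Eomes-positive cells, so the arrays of sorts 1 and 3 were high and that of sort 2 was not. With 1 array of 6 measured, no fold is given. The start codon probe, A_52_P55876, was not well above background on any array. The 1.45-fold value therefore describes the non-coding transcript's probe, and a level of the protein-coding forms was not measured in Eomes-negative cells.

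Runx3, the family member of the cytotoxic lineage, differed by 1.26-fold. The Runx3 level was 0.45, 0.11 and 0.99 in Eomes-negative cells and 0.67, 0.59 and 1.29 in Eomes-positive cells. Each Eomes-positive array exceeded its partner, and the spread between sorts was wider than the steps within them. The difference was 0.33 (interval -0.43 to 1.09, limma adjusted p = 0.868), with sort differences of 0.22, 0.48 and 0.30. Blocking by sort gave an interval of 0.06 to 0.61 (limma adjusted p = 0.143). The second Runx3 probe, A_51_P494992, lies 1.9 kb away and gave sort differences of 0.50, 0.01 and -0.52, with a mean of -0.00.

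Cbfb, the partner that all Runx proteins share, differed least within sorts of the 9. Its level was 5.13, 4.72 and 4.56 in Eomes-negative cells and 5.18, 4.75 and 4.60 in Eomes-positive cells. The groups moved together from sort to sort, with differences of 0.04, 0.03 and 0.03 within sorts. The mean difference was 0.04 (interval -0.54 to 0.61, limma adjusted p = 0.997), and blocking by sort narrowed the interval to -0.20 to 0.27.

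Gata3 was not past the test either. The Gata3 level was 2.90, 2.51 and 2.36 in Eomes-negative cells and 2.61, 2.58 and 2.06 in Eomes-positive cells. The Eomes-positive array was lower in sorts 1 and 3 and higher in sort 2, and the groups overlapped. The means were 2.59 ± 0.28 and 2.42 ± 0.31 (SD, n = 3), a difference of -0.17 (interval -0.75 to 0.41, limma adjusted p = 0.947).

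**Figure D2:**
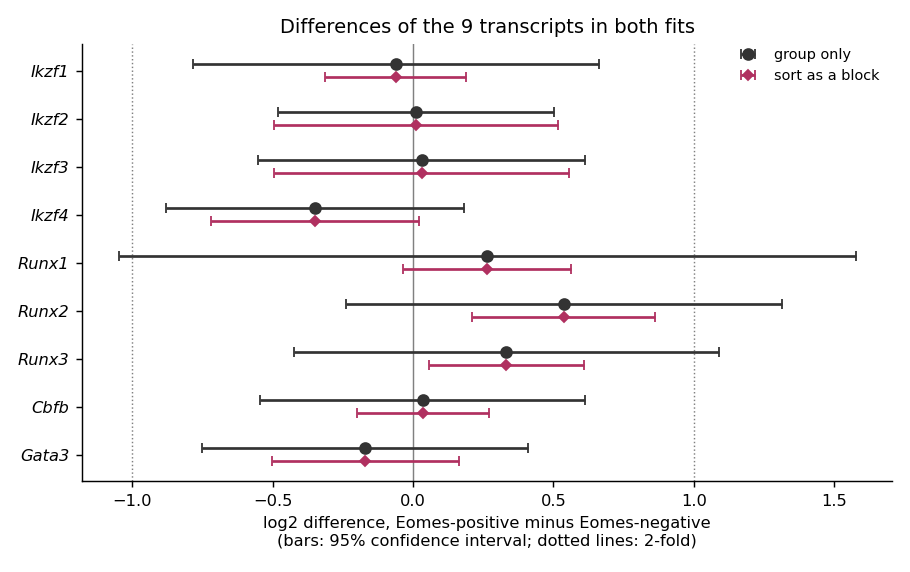
Difference of each factor by its brightest probe, Eomes-positive minus Eomes-negative in log2 units. Bars are 95% confidence intervals from limma without (black) and with (red) a block by sort. Without the block 6 of 9 intervals stay within 2-fold, with it all 9 do, and the block intervals of Runx2 and Runx3 lie above 0.

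A p that misses the threshold does not show equal levels, so the intervals give the sizes these arrays allow for the brightest probe of each gene. Without the block, the intervals of 6 factors stayed within a 2-fold change in either direction, and those of Runx1, Runx2 and Runx3 did not. Under the block by sort all 9 stayed within 2-fold. Other probes of the same genes allow larger sizes. The second Ikzf2 probe, A_66_P122551, ran from -1.77 to 1.21 without the block and from -1.21 to 0.64 with it. Without the block, the Ikzf1 probes A_55_P2023607 (-2.39 to 2.20) and A_55_P2023612 (-1.48 to 0.82) also reached past 2-fold. The pairing of the arrays by sort was visible over all genes, as given with the processing. Slides only partly followed the sorts. Slide 1 held both arrays of sort 1 and the Eomes-negative array of sort 2, slide 2 held the Eomes-positive array of sort 2, and slide 3 held sort 3. Within slide 1, the Eomes-positive array minus the mean of the Eomes-negative arrays was 0.50 for Runx2, 0.39 for Runx3, 0.38 for Runx1 and 0.25 for Cbfb. The same value was 0.45 for Ikzf3, 0.13 for Ikzf1, -0.01 for Ikzf2, -0.13 for Ikzf4 and -0.09 for Gata3. With the slide as a block the differences were 0.62 for Runx2, 0.35 for Runx3, 0.35 for Runx1, 0.16 for Cbfb, 0.26 for Ikzf3, 0.05 for Ikzf1, -0.05 for Ikzf2, -0.33 for Ikzf4 and -0.18 for Gata3, again with none past the threshold. Slide 3 gives the values of sort 3. Because these are bulk samples, fewer cells that express a gene and less RNA per cell cannot be told apart.

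Taken probe by probe, 15 of the 18 probes were measured on all 6 arrays and tested. Limma over 21131 measured probes called 0 of them, against 2.41% of all probes, and the lowest adjusted p was 0.687. The fit blocked by sort called 0, against 6.72%, with a lowest adjusted p of 0.0927. Of the 15, 6 were higher and 9 lower in Eomes-positive cells, and in none did the groups separate. Over all genes, read by the brightest probe, the groups separated in 18.2%, and the share over all probes was not counted. Several of the 15 probes read the same gene, so they are not independent. Not tested were the 2 coding Runx2 probes and the Ikzf4 zinc finger probe, which was well above background only on the arrays of sort 1. That probe read -4.83 and -4.84 there in Eomes-negative and Eomes-positive cells.

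**Figure D3:**
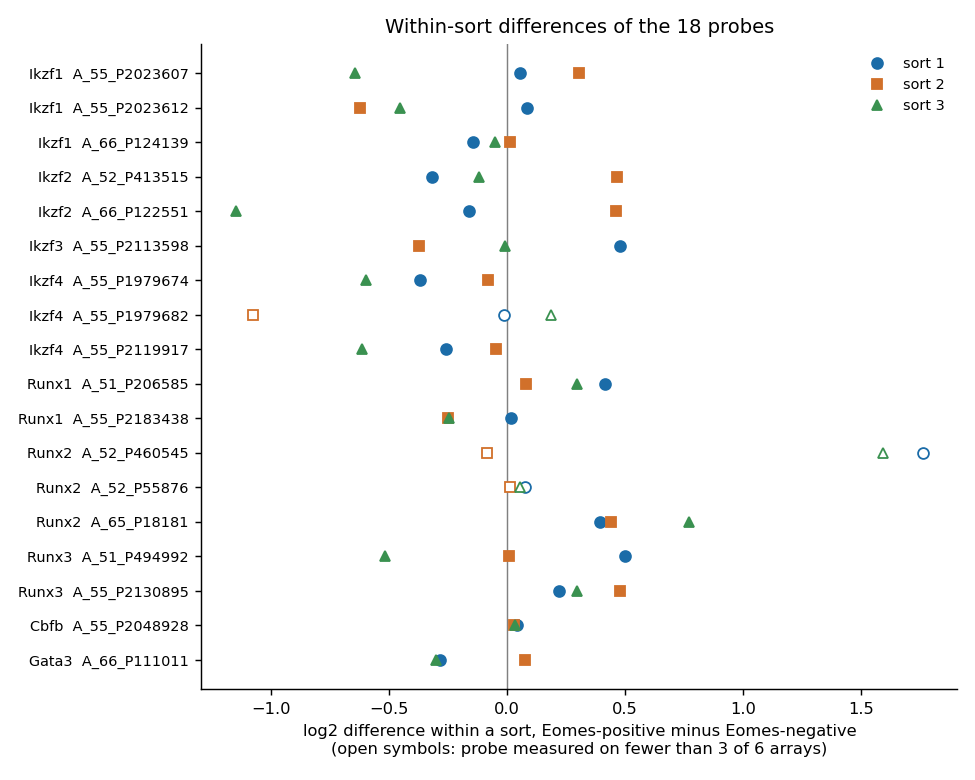
Difference within each sort, Eomes-positive minus Eomes-negative in log2 units, for all 18 probes, with open symbols for probes measured on fewer than 3 arrays. Probes of 1 gene often lie on opposite sides of 0, as for Runx1 and Runx3, while the filled symbols of Runx2 all lie between 0.39 and 0.77.

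For Ikzf1, Runx1 and Ikzf2, probes of 1 gene differed from each other in how they ran over the sorts. The Ikzf1 probe A_55_P2023607 read 0.18, 0.10 and -1.77 in Eomes-negative cells and 0.24, 0.41 and -2.42 in Eomes-positive cells. Its mean in sort 3 was 2.33 log2 units below that of the other arrays. The brightest Ikzf1 probe was 0.54 lower in sort 3 and the zinc finger probe 0.27 higher. The Runx1 probe A_51_P206585 was 1.31 lower in sort 3 and the other Runx1 probe 0.15 lower. These were the 2 of 15 probes with both sort 3 arrays over 1 log2 unit below every other array, against 2.6% of all probes tested. The Ikzf2 probe A_66_P122551 was 1.31 lower in sort 3 on average, with -0.18, -0.86 and -1.18 in Eomes-negative cells and -0.34, -0.40 and -2.33 in Eomes-positive cells. The brightest Ikzf2 probe was 0.01 lower. The G and C content was 35.0% in the low Ikzf1 probe and 45.0% in both others, and 41.7% in the low Runx1 probe and 58.3% in the other. In Ikzf2 the order was the opposite, with 38.3% in the lower probe and 35.0% in the brightest one. Sort 3 differed from the others in mouse age, RNA input and slide, which cannot be told apart.

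**Figure D4:**
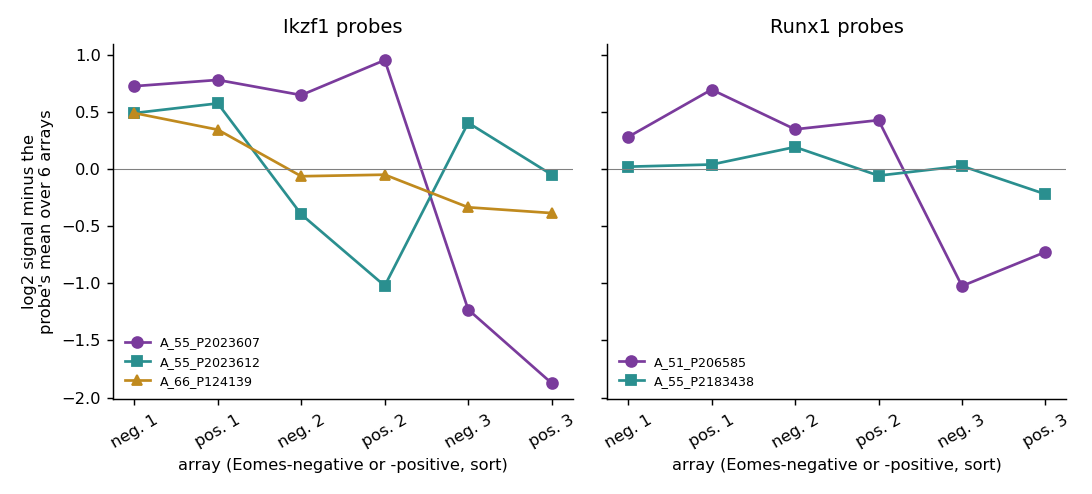
Log2 signal of each Ikzf1 and Runx1 probe minus that probe's mean over the 6 arrays, by array. A_55_P2023607 and A_51_P206585 drop on both arrays of sort 3, while the remaining probes of the same genes differ less between sort 3 and the other sorts (0.54 lower, 0.27 higher and 0.15 lower).

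None of the tested partners of these factors passed the test without the block. That fit called 2.77% of all genes, so a count of 0 in lists of this size lies near that share. Of 19 listed Ikaros and NuRD partners, 18 were tested and 0 were called, with a median difference of -0.05 against -0.01 over all genes. The 2 with the highest signal were Sin3b, a scaffold of histone deacetylase complexes, at -0.20 (limma adjusted p = 0.837), and Rbbp7, a histone-binding NuRD subunit, at 0.29 (0.643). The fit blocked by sort called 1 of these 18, against 7.98% of all genes. That was Mta3, another NuRD subunit, which was lower (-0.77, limma adjusted p = 0.048). Of 18 listed Runx co-factors, 16 were tested and 0 were called, with a median of 0.05. Ets1, which binds DNA together with Runx proteins, differed by 0.24 (adjusted p = 0.744) and Tle5, of the Groucho co-repressors, by -0.57 (0.769). Hipk2, a kinase that phosphorylates Runx proteins, was called higher in the fit blocked by sort (1.20, limma adjusted p = 0.0164) and not in the fit without it (0.117). It was the only gene called among the 16 in the blocked fit.

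Of 15 listed Gata relatives and partners, 12 were tested and 0 were called, against 2.77% of all genes, with a median of -0.06. Lmo4, a LIM-only adaptor, differed by -1.06 (limma adjusted p = 0.0857) and Sox4, which restrains Gata3, by 0.19 (0.918). Blocked by sort, limma called Lmo4 lower (adjusted p = 0.0322) and Zfpm1 higher (0.88, adjusted p = 0.0193). These were the only calls among the 12 in that fit, against 7.98% of all genes. Zfpm1 encodes FOG1, which binds Gata proteins and can hold Gata3 in check. Its level was 2.92, 2.45 and 2.53 in Eomes-negative cells and 3.75, 3.42 and 3.37 in Eomes-positive cells. All 3 Eomes-positive arrays lay above the Eomes-negative ones, and the adjusted p without the block was 0.101.

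Among genes linked to Gata3 and type 2 cells, Maf and Il2ra were measured on all 6 arrays and called lower in Eomes-positive cells. Gata3 itself was not called. Maf also acts in IL-17-producing γδ T cells, and Il2ra is also listed below with genes linked to Helios and Eos. The values of Maf and Il2ra are therefore not a reading of Gata3 activity. Of 14 listed genes, 8 were tested, 5 were called lower and 0 higher, against 1.57% and 1.2% of all genes. The other 3 called genes, Ccr4, Il17rb and Ptgdr2, were well above background on no Eomes-positive array. They passed the filter only through Eomes-negative arrays, so they had to differ, and neither the count nor the median over the list is support for its direction. That median was -2.99 (-2.74 with bounded genes at their bound), -1.62 among genes measured on all 6 arrays, -1.65 with normexp background and -0.68 without the filter on dim probes.

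Maf, a factor that activates Il4 and also acts in IL-17-producing γδ T cells, was 2.51, 2.78 and 2.51 in Eomes-negative cells and -0.28, 0.14 and -0.85 in Eomes-positive cells. The groups lay far apart in every sort, a fall of 7.60-fold (limma adjusted p = 0.00787). Il2ra, the IL-2 receptor alpha chain, fell 3.07-fold (adjusted p = 0.043). Ccr4, a chemokine receptor of type 2 and skin-homing T cells, was at least 23.6-fold lower (limma adjusted p = 0.00271), with -1.17, -1.34 and -1.48 in Eomes-negative cells. Il17rb, a receptor for IL-25, was at least 12.5-fold lower (adjusted p = 0.00795). Ptgdr2, the prostaglandin D2 receptor CRTH2, was at least 5.90-fold lower (adjusted p = 0.00687). Il4 was -0.08, -0.94 and 0.09 in Eomes-negative cells and -7.35, -3.51 and -6.33 in Eomes-positive cells, with 1 of the latter arrays well above background, and missed the threshold (adjusted p = 0.0589). Il5, Il9, Il10, Il13 and Areg were well above background on no array, and Il1rl1 was measured on 2. Without any 1 of the 3 sorts, limma called 0 genes of this list.

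Genes linked to Runx3 in T and NK cells moved in both directions. The list mixes genes that Runx3 silences, such as Cd4, with genes of the cytotoxic programme that it promotes. Neither the directions nor the median are therefore a reading of Runx3 activity. All 14 listed genes were tested, with a median of -0.45. Limma called 3 higher and 2 lower, against 1.2% and 1.57% of all genes. The higher ones were Eomes, by which the cells were sorted (4.76, adjusted p = 0.0178), Il2rb, a receptor chain for IL-2 and IL-15 (1.42, adjusted p = 0.014), and Tbx21, which encodes T-bet (1.12, adjusted p = 0.0447). The lower ones were Itgae, the integrin chain CD103 (limma adjusted p = 0.00596), and Cd8b1, the CD8 beta chain (-2.86, adjusted p = 0.0194). Itgae was measured on 3 Eomes-negative arrays and 1 Eomes-positive array, so the Eomes-negative arrays alone sufficed for the filter. No size is given for it, and its call is no support for a direction. Cells bearing CD8β had been depleted from both groups. Cd4, which Runx proteins silence, was 0.57, 0.62 and 1.45 in Eomes-negative cells and 0.37, 0.35 and 0.76 in Eomes-positive cells, a difference of -0.39 that was not called (adjusted p = 0.775). Without sort 1 or sort 2, limma called 0 genes of this list, and without sort 3 it called 1 higher and 0 lower. The fit blocked by sort called 5 higher and 4 lower of the 14, against 3.65% and 4.32% of all genes. Those calls include Eomes, by which the cells were sorted, and Itgae, so the counts are no support for a direction.

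Of 10 listed genes that Helios and Eos are linked to in regulatory T cells, all were tested, with a median of 0.07. Limma called 1 of the 10, against 2.77% of all genes. That was Il2ra, which also stands in the type 2 list. The fit blocked by sort called 2 higher and 3 lower of the 10, against 3.65% and 4.32% of all genes. Among these calls, Nrp1 was measured on 3 Eomes-negative arrays and 1 Eomes-positive array. Tigit was measured on 3 Eomes-positive and 2 Eomes-negative arrays. For both genes the group where they were high alone sufficed for the filter, so their calls are no support for a direction. Foxp3, the defining factor of regulatory T cells, was well above background on only 2 arrays of each group. It was lower in Eomes-positive cells in all 3 sorts (-1.09). Foxp3 was not called without the block (limma adjusted p = 0.317) and was called lower, close to the threshold, with it (limma adjusted p = 0.0496).

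**Figure D5:**
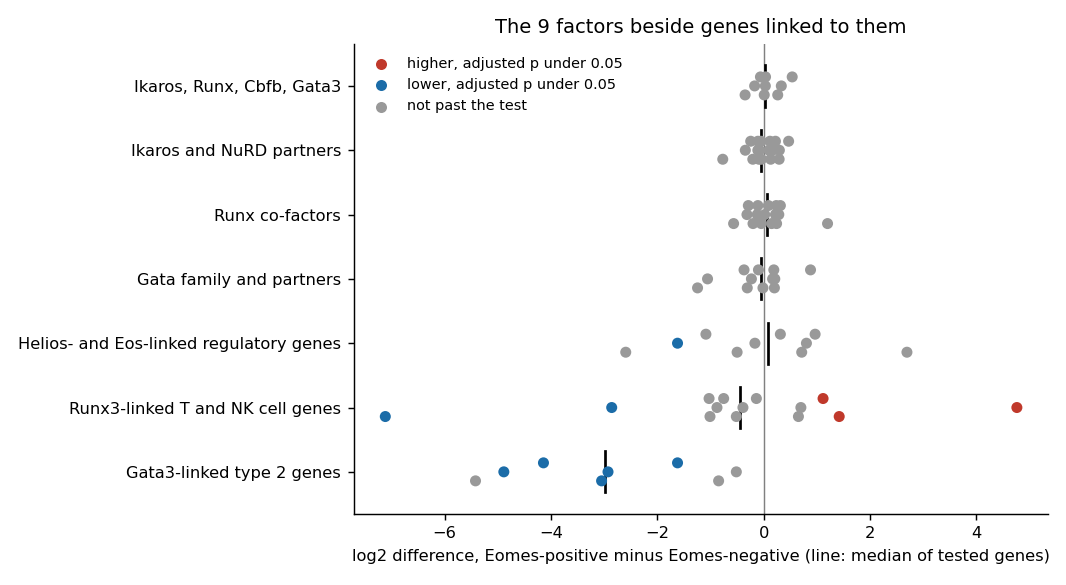
Difference of each tested gene, Eomes-positive minus Eomes-negative in log2 units, for the 9 factors, their partner lists and the lists of genes linked to them, with a line at each median. The medians of the factors and of the 3 partner lists lie between -0.06 and 0.05, with single partners out to -1.24 (Gata1) and 1.20 (Hipk2), and called genes (coloured) stand in the linked lists. Genes not measured in Eomes-positive cells, and Itgae, measured there on 1 array, are drawn at their recorded values.

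Markers of the labelled cell type were read beside those of other cells. Over all genes, limma called 1.2% higher and 1.57% lower, and in lists this short a count of 0 lies near these shares. Cd3d, a chain of the T cell receptor complex, lay between 6.95 and 7.15 on all 6 arrays. Of 13 γδ T cell and CD3 markers, 11 were tested, 0 were called higher and 2 lower (the Tcrg-V6 probe at -4.02, and Blk). Their summed log2 level was 8.36 to 8.73 in Eomes-negative and 8.23 to 8.57 in Eomes-positive cells. Tcrg-C and Trdc, constant chains of the γδ receptor, were not found among the names on the array. The highest levels in the sum were those of CD3 chains, which αβ T cells also carry. The sum therefore does not single out γδ T cells. Blk, a Src family kinase, read 0.93, 1.69 and 2.77 in Eomes-negative cells and was well above background on 1 Eomes-positive array, so no size is given for it. Of 12 NK cell and ILC1 markers, 11 were tested, and Klre1 (4.33), Klri2 (2.88), Klrb1c (1.66) and Styk1 were called higher by limma. Styk1 was measured on 3 Eomes-positive and 2 Eomes-negative arrays, so the Eomes-positive arrays alone sufficed for the filter. No size is given for Styk1, and its call is no support for a direction. The summed level of the 11 markers was 3.78 to 5.82 in Eomes-negative and 5.92 to 6.57 in Eomes-positive cells. Of 12 αβ T cell markers, 9 were tested and only Cd8b1 was called (summed level 5.75 to 6.20 and 5.32 to 5.60). Of 10 markers of type 2 innate lymphoid cells, 4 were tested and Il17rb and Bmp7 (-1.16) were called lower (0.89 to 1.59 and -0.36 to 0.25). Il17rb passed the filter only through Eomes-negative arrays, so it had to differ and its call is no support for this direction. B cell markers had 8 of 11 tested and 0 called (4.00 to 4.59 and 3.27 to 4.27), with Ighm measured on no array and Pax5 and Ebf1 on 2. Myeloid and megakaryocyte markers had 10 of 12 tested and 0 called, and their summed level was 8.05 and 8.09 on the arrays of sort 2 against 3.81 to 5.16 elsewhere. The part of such cells in the values of the 9 factors was not tested.

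Genes whose profile over the 6 arrays was most like that of the 3 factors with the greatest differences were sought among 10558 genes with a plain symbol measured on every array. Likeness was the root mean square distance between profiles centred on their own mean, in log2 units. Nearest to Runx2 were Bcl7a (0.0778), Cc2d1a (0.0788) and Tfcp2 (0.0821), nearest to Ikzf4 were Nedd9 (0.0522), Dbp (0.0708) and Wdyhv1 (0.0734), and nearest to Runx3 were Pea15a (0.0561), Ep400 (0.0592) and Rnf44 (0.0604). None of these was called between the groups, and their distance also reflects steps between sorts that the arrays share.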

How the data were processed

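Per the file headers, the deposited scanner files hold spot intensity on a linear scale from Agilent Feature Extraction 10.7.3.1 (probe annotation mm9), background-subtracted and detrended. Other columns of the deposited files, used as 0 or 1 flags, mark spots well above background, saturated or outlying. The table of intensity values that the authors deposited, scaled to a 75th percentile of 1497 to 1506, was an alternative. Spots of a probe (4 per array) were averaged as log2 processed intensity without outlier spots, and the array's 75th percentile was subtracted. Raw 75th percentiles were 1581 to 1684 in sorts 1 and 2 and 534 to 549 in sort 3. The number of arrays limits the precision.

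Measured means that 50% or more of the spots of a probe passed as well above background on an array. Names came through RefSeq for 27508 probes and otherwise from the file. The brightest probe measured on at least 3 arrays stood for a gene. The comparison used R 4.3.3 and its packages limma 3.58.1, statmod 1.5.0 and data.table (version 1.17.8), with a model of group only, with Benjamini-Hochberg adjustment at 0.05. The code was tested on simulated data. Where no array of a group measured a probe, the fold is a bound against the lowest signal well above background on each array, or the probe's own signal where higher. Normexp background used an offset of 50. Figures used Python 3.11.15, matplotlib 3.10.9 and pandas 2.3.3.

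Sort numbers pair the arrays: per the labels, arrays of 1 number share sort, age and RNA input, and their deviations from the group means correlated at 0.812, 0.818 and 0.808. Each sort is a separate pool of spleens.

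The members and lists were chosen with earlier results of these data known. Named beside the 9 members and their probes were, per list, up to 3 called genes of greatest difference, or the 2 of highest signal where none was called, and the 3 genes most like each of 3 members. Mta3, Hipk2, Gata1, Zfpm1, Maf, Il4, Il2rb, Tbx21, Cd4, Foxp3, Nrp1, Tigit, Cd3d and Klrb1c fall outside this rule. So do genes named as not measured or not found on the array. All of these were chosen after the values were seen. Exon and UTR annotation of the mm9 positions was not used here.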

Additional observations from a re-analysis of the deposited data

How the results depend on the processing

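Over 20 alternative settings, 0 of the 9 factors was called in any, and Ikzf4 (lower), Runx2 and Runx3 (higher) kept their direction in all of them by the brightest probe. Ikzf1 turned to 0.038 with median scaling, 0.053 with the slide as a block and 0.018 with the slide as a random block, and Ikzf2 turned to -0.14 with the mean of all probes, -0.054 with the slide as a block and -0.023 with the random block. Read from single probes, Ikzf2 was -0.28 by A_66_P122551, Runx1 -0.16 by A_55_P2183438 and Runx3 -0.0029 by A_51_P494992. None of these values was past the threshold. Leaving out 1 sort or 1 array gave ranges of -0.25 to 0.17 for Ikzf1, -0.22 to 0.18 for Ikzf2, -0.19 to 0.25 for Ikzf3, -0.18 to 0.69 for Runx1, -0.13 to 0.20 for Cbfb, -0.29 to 0.012 for Gata3, 0.24 to 0.73 for Runx2, 0.11 to 0.57 for Runx3 and -0.48 to -0.20 for Ikzf4. Without the Eomes-positive array of sort 3, Runx2, Runx3 and Ikzf4 came to 0.24, 0.11 and -0.20. Runx3 was 0.13 without the Eomes-negative array of sort 2 and 0.57 without that of sort 3, and Ikzf4 was -0.21 without the Eomes-negative array of sort 1 and -0.23 without sort 3. Normexp background gave 0.21 for Runx2. Runx1 was below 0 without the Eomes-positive array of sort 1 (-0.02) and without the Eomes-negative array of sort 3 (-0.18). In fits without 1 sort or 1 array the remaining arrays are assumed to vary like the rest.

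Over all genes, 197 higher and 257 lower became 92 and 154 without the filter on dim probes and 443 and 514 with the slide as a random block. With the sort as a replicate block they became 600 and 710. Genes measured on all 6 arrays gave 166 lower. Leaving out sorts or arrays gave 0 to 101 higher and 0 to 180 lower, with 0 without sort 1 or sort 2 and 41 and 28 without sort 3.

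With the sort as a replicate block, limma called 7.98% of all genes. Counts rose to 1 lower of 18 Ikaros partners, 1 higher of 16 Runx co-factors, and 1 higher and 1 lower of 12 Gata partners. They rose to 5 higher and 4 lower among Runx3-linked genes and 2 higher and 3 lower among Helios- and Eos-linked genes. Both lists include calls described above as no support for a direction. Among αβ markers the counts rose to 1 higher and 4 lower, and among B cell markers to 1 lower. The pairing changed no other count of a list past 1.5 times. With the slide as a random block, 1 Runx co-factor, 5 Runx3-linked, 1 Helios-linked and 1 αβ gene were higher, 2 αβ and 1 B cell gene lower, and the Gata partners gave 1 in each direction. The slide as a block gave 1 higher Runx co-factor, 1 higher and 0 lower Helios-linked genes, and 1 lower γδ and 1 lower ILC2 marker. Among genes measured on all 6 arrays, 2 type 2 genes (median -1.62), 1 Runx3-linked gene, 1 γδ marker and 1 ILC2 marker were lower. Without the filter on dim probes, the type 2 median was -0.68, 1 Runx3-linked gene and 2 NK markers were higher, and 0 Helios-linked genes and 1 ILC2 marker were lower. With normexp background the type 2 median was -1.65 and the ILC2 median -0.94, with 1 ILC2 and 1 B cell marker lower. Median scaling and quantile normalization gave 0 lower Helios-linked genes, median scaling 1 lower ILC2 marker, the mean of all probes 1 higher αβ marker, and trend and robust moderation 1 lower B cell marker.

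Leaving out sorts or arrays gave 0 to 5 lower type 2 genes, 0 to 1 higher and 0 to 2 lower Runx3-linked genes, 0 to 1 higher and 0 lower Helios-linked genes, 0 to 2 lower γδ, 0 to 1 lower αβ, 0 to 3 higher NK and 0 to 1 lower ILC2 markers. The cause of these changes was not tested, beyond the fewer genes or arrays that the filters and omissions leave. With 3 arrays per group and 6 in all, the intervals of the Runx genes without the block reach past 2-fold, and 2 Runx2 probes and 1 Ikzf4 probe lay mostly below the detection threshold.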
